A study of Mus musculus with 4 samples.

Results

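Chemokines that attract monocytes, and receptors of monocytes, were followed in cochlear RNA after depletion of outer hair cells (OHCs). They are CCL2, CCL7, CCL8 and CCL12, the receptor CCR2, and fractalkine (CX3CL1) with its receptor CX3CR1. The members are the 7 genes Ccl2, Ccl7, Ccl8, Ccl12, Cx3cl1, Ccr2 and Cx3cr1, taken by name from the array files. They are measured by 9 of the 39429 probes on the array that are not controls, 5 for the ligands and 4 for the receptors, since Cx3cr1 has 3 probes and each of the others has 1.

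RNA of whole cochleae was hybridised to 1 single-colour Agilent array per group, and the 4 arrays lay on 1 slide. All mice were on the B6J background and 5 weeks old, and males and females were pooled (n = 8 per group, 4 females and 4 males, with mice or cochleae as the unit of n not settled by the sources used here). The groups were untreated wild-type mice, wild-type mice given diphtheria toxin (DT), untreated Prestin-hDTR mice and DT-treated Prestin-hDTR mice, and the labels call the Prestin-hDTR mice OHC-TRECK. DT was given at 50 μg/kg and the cochleae were taken 7 days later, and no vehicle is named for the untreated groups. Both Prestin-hDTR groups carry the human toxin receptor under the prestin (Slc26a5) promoter, which is active in OHCs, and the mice come from a single transgenic line. The comparisons ask which genes of this axis differ once toxin meets the transgene, and what toxin alone and transgene alone do to them. With 1 array per group nothing below could be tested for replicate spread, p-values are therefore absent, and position on the slide and group cannot be told apart. In whole tissue, more cells of a type and more RNA per cell cannot be told apart either.

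CCR2 is carried by classical monocytes and is needed for their release from bone marrow and their entry into injured tissue. CCL2, CCL7, CCL8 and CCL12 are small secreted chemokines of 1 gene cluster, made by resident macrophages, stromal cells and endothelium under inflammatory signals. CX3CL1 is made mainly by neurons and epithelium as a membrane-bound protein that can be shed, and CX3CR1 is carried by resident macrophages, microglia and patrolling monocytes. Cochlear macrophages carry CX3CR1, and CCR2-bearing monocytes are known to enter the cochlea after noise or toxic injury.

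Since every value below is the hybridisation to a probe of 60 bases, the first 30 bases of each are shown, 5′ to 3′, as printed in the array files. The capitals mark the stretch within these bases that probe 1 and probe 2 of Cx3cr1 have in common; in full, these probes overlap by 55 bases and so read nearly the same target, whereas no other pair of the 9 probes shares a run of more than 8 bases.
Ccl2: tgtaggagtgaccagtgtgacagtgaacta
Ccl7: ttctgagaactgttgatgaaatgtgttgat
Ccl8: accagaagtctcaaattctgcagccttgaa
Ccl12: cctgaagttccccacgggcagtgtgatatt
Cx3cl1: tcccagagcagaatgtgggccgtaacaatc
Ccr2: gaagcagggacagaattcttgctttgaaaa
Cx3cr1 probe 1: cgtgcCTAGAGTGTGTCTATCCCACTTGTA
Cx3cr1 probe 2: CTAGAGTGTGTCTATCCCACTTGTAattct
Cx3cr1 probe 3: caagaatgtcttcatgcattcactgactcc

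Probe positions are given as in the array files (mm9 build). On chromosome 11 the probes lie on the plus strand at chr11:81850650-81850709 for Ccl2, chr11:81860656-81860715 for Ccl7, chr11:81916764-81916823 for Ccl12 and chr11:81930108-81930167 for Ccl8. The RefSeq table places Ccl11 and a long noncoding RNA between Ccl7 and Ccl12 in the same cluster. The Ccr2 probe lies at chr9:124022948-124023007 on the plus strand and the Cx3cl1 probe at chr8:97306185-97306244 on the plus strand. On the minus strand of chromosome 9, Cx3cr1 probe 1 lies at chr9:119957811-119957870, probe 2 at chr9:119957806-119957865 and probe 3 at chr9:119959018-119959077. Which exon or untranslated region each probe reads was not determined here, as no genome annotation of that build was used.

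Promoters of 5 of the 7 members are in the RefSeq promoter table (GRCm38.p6); Ccl2 and Ccl7 are not in it. The 120 bases before the start of the neighbouring genes Ccl8 (chr11:82115065-82115184, plus strand) and Ccl12 (chr11:82101725-82101844, plus strand) are shown because these are the ligands of the cluster whose promoters could be read, with the letters TATAAA in capitals.
Ccl8: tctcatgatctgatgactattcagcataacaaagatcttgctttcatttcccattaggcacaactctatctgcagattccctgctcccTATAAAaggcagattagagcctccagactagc
Ccl12: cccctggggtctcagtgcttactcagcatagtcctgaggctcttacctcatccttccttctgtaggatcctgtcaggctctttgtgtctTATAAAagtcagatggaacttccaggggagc

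The letters TATAAA, searched on the strand of the gene, start at base -32 in Ccl8 and at base -31 in Ccl12. They also lie at base -6 of Cx3cl1, and they occur in 7.59% of 32851 promoters when 250 bases before the start are read. On both strands of the same 250 bases, the NF-kB motif (in 7.25% of all promoters), the AP-1 letters TGANTCA (6.75%), the STAT letters TTCNNNGAA (7.02%), the C/EBP letters TTGCNNAA (9.56%) and the interferon response letters GAAANNGAAA (2.98%) were found in 0 of the 5 member promoters.

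Signal is given on the log2 scale, with 0 at the 75th percentile of each array. A probe counted as changed at 2-fold or more. It entered a comparison if either of the arrays showed it well above background; where the other did not, its own signal or the lowest detected one of that array, whichever was higher, took its place, and the resulting fold, marked with the words at least, can only be too small. Between 62.2% and 70.6% of probes were well above background on an array, and no spot was saturated. Probes spotted repeatedly (299 to 311 per array) had a median SD of 0.0607 to 0.0713 in log2 signal, an error that holds no difference between animals. As a check of the labels, 4 of 6 OHC markers were lower by 2-fold or more against each control after DT in Prestin-hDTR mice. Among these, Ocm and Strc lay 4.71-fold to 5.22-fold and 7.43-fold to 8.57-fold below the 3 controls. Slc26a5, not well above background on the DT-treated Prestin-hDTR array, was at least 1.31-fold to at least 1.96-fold lower, and Ikzf2 lay within 1.07-fold. The inner hair cell markers Otof and Slc17a8 were 1.39-fold to 1.6-fold and 1.28-fold to 1.46-fold lower. The log2 ratios of Coch, an abundant cochlear gene, lay between -0.04 and 0.07.

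Against untreated Prestin-hDTR mice, DT-treated Prestin-hDTR mice had 6 of the 9 member probes higher by 2-fold or more, where 2.49% of all 28082 probes compared were. Against untreated wild-type mice 5 of 9 were higher (1.96% of 26810 probes), and against DT-treated wild-type mice 5 of 9 (1.41% of 25394 probes). The probes of Ccl2, Ccl7, Ccl8 and Ccr2 and probe 3 of Cx3cr1 were higher by 2-fold or more against each of the 3 controls, where 1.08% of 25061 probes were. No member probe was lower in any of these comparisons, and all 9 lay above the highest control. With the normexp background correction in place of that of the scanner software, 3 of the 5, Ccl2, Ccl7 and Cx3cr1 probe 3, were still higher by 2-fold or more against each control. Normexp as used here adds an offset of 50 to each intensity, which shrinks the ratios of dim probes. The 3 comparisons share the DT-treated Prestin-hDTR array and are not separate evidence.

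**Figure D1:**
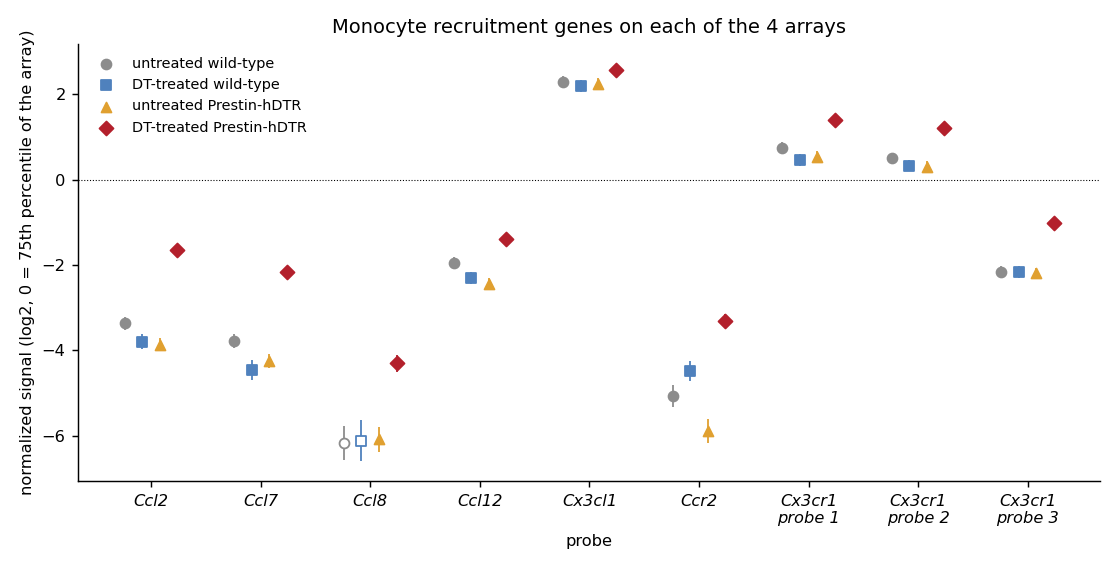
Normalized log2 signal of the 9 probes (y axis, 0 at the 75th percentile of the array) on the 4 arrays; bars show the error of a spot as the scanner software estimates it, and open symbols mark signals not well above background. The DT-treated Prestin-hDTR array is the highest for each probe, and the controls of Ccr2 lie farthest apart, from -5.89 to -4.49.

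Ccl2, the main monocyte chemoattractant, had a log2 signal of -3.37 in untreated and -3.80 in DT-treated wild-type mice, -3.86 in untreated and -1.64 in DT-treated Prestin-hDTR mice. The controls lay within 0.50 of each other and the DT-treated Prestin-hDTR array stood 1.73 above the highest of them. Its signal was 3.31-fold that of untreated wild-type, 4.45-fold that of DT-treated wild-type and 4.67-fold that of untreated Prestin-hDTR mice. Only 0.356% of the probes compared had a ratio as high against untreated Prestin-hDTR mice.

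Ccl2 is also the member with a measured error within each array, because its probe is spotted 10 times. The log2 spots had an SD of 0.14 in untreated and 0.25 in DT-treated wild-type mice, and of 0.11 without and 0.06 with DT in Prestin-hDTR mice, the last over 9 spots since 1 was marked as an outlier. The lowest spot in DT-treated Prestin-hDTR mice, at -1.72, lay above the highest spot of any control, at -3.18. The spots of DT-treated wild-type mice overlapped those of both other controls. Their overlap with untreated wild-type spots rests on 1 spot, at -3.18, and the next highest was at -3.67. Untreated wild-type spots (lowest -3.62) and untreated Prestin-hDTR spots (highest -3.66) did not overlap.

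**Figure D2:**
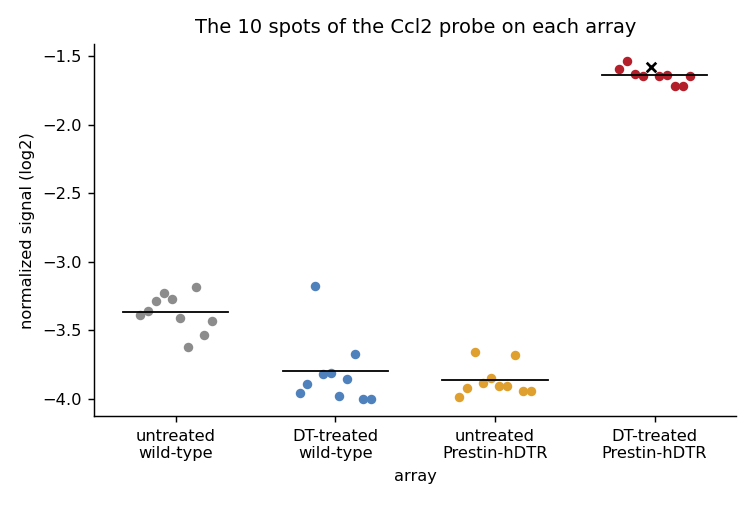
Normalized log2 signal (y axis) of each of the 10 spots of the Ccl2 probe on the 4 arrays; lines are the array means, and the cross is the spot marked as an outlier and left out. The DT-treated Prestin-hDTR spots lie from -1.72 to -1.54 and do not overlap those of the controls.

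Ccl7 (monocyte chemotactic protein 3), which also signals through CCR2, had log2 signals of -3.77 in untreated and -4.46 in DT-treated wild-type mice, and -4.24 in untreated and -2.16 in DT-treated Prestin-hDTR mice. The controls did not reach within 1.61 of the DT-treated Prestin-hDTR array, and they spanned 0.68. The ratio to DT-treated wild-type mice, 4.90-fold, was the highest of any member in that comparison, and its ratio was 3.05-fold to wild-type and 4.23-fold to Prestin-hDTR mice without DT.

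Ccl8 (monocyte chemotactic protein 2) was close to background in the controls. Its intensity in wild-type mice was 37.8 without and 45.7 with DT, neither well above background, 44.6 in untreated Prestin-hDTR mice and 159 in DT-treated Prestin-hDTR mice. The signal in DT-treated Prestin-hDTR mice was 3.44-fold that of untreated Prestin-hDTR mice, at least 3.09-fold that of untreated wild-type mice and at least 2.27-fold that of DT-treated wild-type mice. All 3 ratios fell under 2-fold with the normexp correction, with log2 ratios of 0.84 to 0.95. The offset of 50 that it adds exceeds each control intensity of this probe, so part of that fall is built in. The call for this gene depends on how dim signals are processed.

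Ccl12, a further CCR2 ligand found in mice, had the smallest ratios of the 4 member ligands of the cluster. Its log2 signals were -1.95 in untreated and -2.30 in DT-treated wild-type mice, and -2.44 in untreated and -1.40 in DT-treated Prestin-hDTR mice. The gap to the highest control, 0.56, was only a little wider than the range of the controls, 0.49. It was 2.06-fold higher than in untreated Prestin-hDTR mice, and the ratios to DT-treated and untreated wild-type mice were 1.87-fold and 1.47-fold, below the threshold. With normexp the first of these also fell under it, at 0.96 on the log2 scale. Grouped by their gene cluster, Ccl8 included, the 4 ligands had a median ratio of 3.82-fold to untreated Prestin-hDTR mice. The median log2 ratio of all probes was -0.016.

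Cx3cl1 did not pass 2-fold in any comparison. Its log2 signals were 2.30 in untreated and 2.20 in DT-treated wild-type mice, and 2.24 in untreated and 2.58 in DT-treated Prestin-hDTR mice. The controls agreed within 0.10, and DT-treated Prestin-hDTR mice lay 0.28 above the highest, a ratio of 1.21-fold to 1.30-fold. For this probe the software put the error of a spot at 0.14 on each array.

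**Figure D3:**
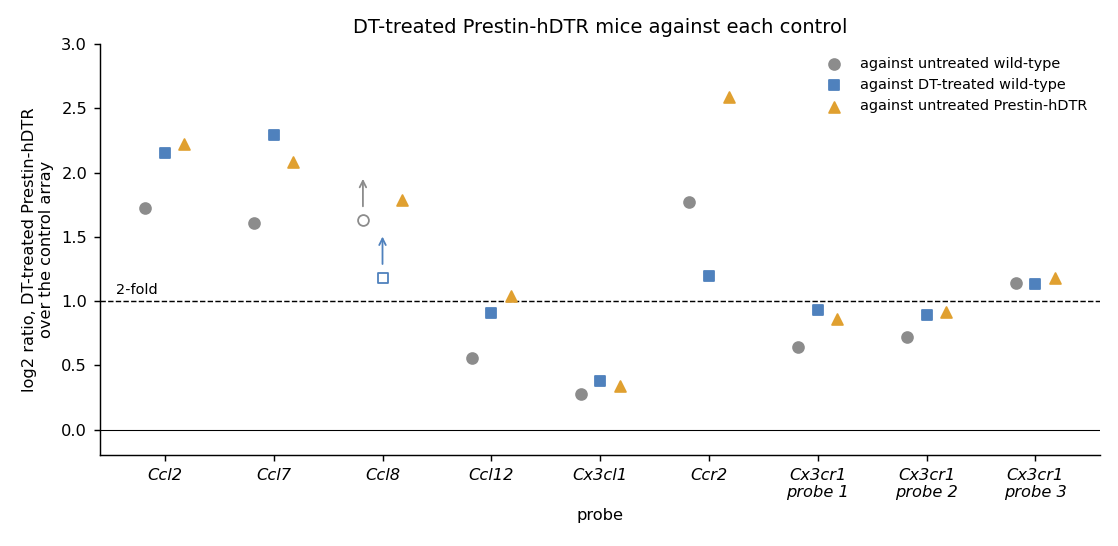
Log2 ratio (y axis) of DT-treated Prestin-hDTR mice over each of the 3 control arrays for the 9 probes; the dashed line marks 2-fold, and open symbols with arrows are lower bounds. Ccl2, Ccl7, Ccl8, Ccr2 and Cx3cr1 probe 3 lie above the line against every control, Ccl12 only against untreated Prestin-hDTR mice, and Cx3cl1 and probes 1 and 2 of Cx3cr1 lie below it.

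Ccr2 had an intensity of 81.2 in untreated and 141 in DT-treated wild-type mice, and 50.9 in untreated and 317 in DT-treated Prestin-hDTR mice, which is -5.07, -4.49, -5.89 and -3.30 on the normalized log2 scale. All 4 signals were well above background. The DT-treated Prestin-hDTR array was the highest, but the controls spread widely below it and were themselves 2.64-fold apart. The signal in DT-treated Prestin-hDTR mice was 6.02-fold that of untreated Prestin-hDTR, 3.42-fold that of untreated wild-type and 2.28-fold that of DT-treated wild-type mice. With the normexp correction these log2 ratios shrank to 1.48, 1.07 and 0.76, the last below 2-fold. By qRT-PCR of cochlear RNA, the paper reports no significant rise of Ccr2 in DT-treated Prestin-hDTR mice, and significant rises of Ccl2 and Ccl7.

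The spread of Ccr2 among the controls, 1.40 on the log2 scale, was the widest of the members measured on all 3. The software's error of a spot was between 0.24 and 0.29 for the same probe on these arrays. Of the 23688 probes well above background on all 4 arrays, 0.849% had a control range as wide, and of the 843 whose mean control signal was within 0.5 of that of Ccr2, 2.37% did; the median range was 0.15 and 0.27 in these sets. Ccr2 was the only member whose gap to the highest control, 1.19, was smaller than the range of the controls, the ratio of gap to range being 0.852. For Ccl2 that ratio was 3.47 and for Ccl7 it was 2.36. With normexp the gap of Ccr2, 0.76, was no longer smaller than its range, 0.72.

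**Figure D4:**
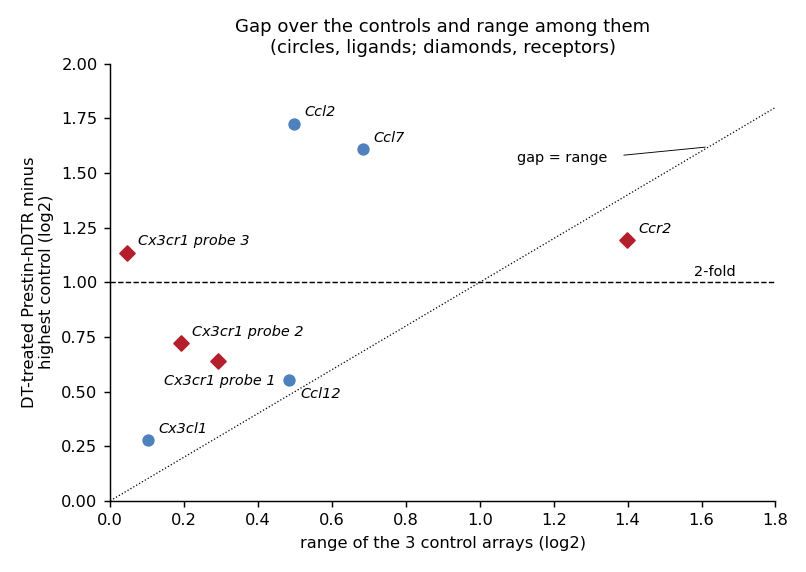
Gap between DT-treated Prestin-hDTR mice and the highest control (y axis, log2) against the range of the 3 controls (x axis, log2) for the 8 probes well above background on all arrays; circles are ligands and diamonds receptors, the dotted line marks equal gap and range and the dashed line 2-fold. Ccr2 is the only probe below the dotted line, and Ccl8 is not plotted.

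Cx3cr1 was read by a pair of overlapping probes and by a separate one. Probe 1 had log2 signals of 0.75 in untreated and 0.46 in DT-treated wild-type mice, and 0.53 in untreated and 1.39 in DT-treated Prestin-hDTR mice. Probe 2 gave 0.50, 0.33, 0.31 and 1.22 in the same order, and probe 3 gave -2.16, -2.15, -2.20 and -1.02. On each probe the DT-treated Prestin-hDTR array stood apart from controls that lay close together, within 0.29, 0.19 and 0.05.

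The size of the Cx3cr1 ratio depended on the probe. Probe 3 was 2.20-fold to 2.27-fold higher against the 3 controls, whereas probe 1 was 1.56-fold to 1.90-fold and probe 2 was 1.65-fold to 1.89-fold higher and neither passed 2-fold in any comparison. The probes disagree on the call and agree on the order of the DT-treated Prestin-hDTR array above the controls.

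Which of ligand and receptor had the larger ratio depended on the control and on the processing. Against untreated Prestin-hDTR mice the log2 ratio of Ccr2, 2.59, exceeded that of Ccl2, 2.22, and of Ccl7, 2.08. Against untreated wild-type mice Ccr2 and Ccl2 were nearly equal, at 1.77 and 1.73. Against DT-treated wild-type mice Ccl2 and Ccl7, at 2.16 and 2.29, exceeded Ccr2, at 1.19. With normexp Ccl2 exceeded Ccr2 against all 3 controls, by 1.88 to 1.48, 1.44 to 1.07 and 1.79 to 0.76 in the same order. The offset of 50 shrinks the ratios of the dimmer Ccr2 probe more. In untreated Prestin-hDTR mice its intensity was 50.9, against 207 for Ccl2. Part of this change of order is therefore built in, and it does not show which ratio was larger. For the fractalkine pair the receptor had the larger ratio in each of the 3, with Cx3cr1 probe 1 at 0.64 to 0.93 and Cx3cl1 at 0.28 to 0.38.

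In the controls, 0 of the 8 member probes that could be compared changed by 2-fold or more between DT-treated and untreated wild-type mice, where 2.55% of 26727 probes changed in either direction. Ccl8 was not compared there, as neither signal was well above background. Likewise 0 of 9 changed with the transgene alone, in untreated mice of both genotypes, where 3.33% of 28327 probes did; for Ccl8 this comparison gave no ratio, because its signal in untreated Prestin-hDTR mice lay below the lowest detected signal of the untreated wild-type array. With toxin alone the log2 signal of Ccr2 was 0.58 higher in wild-type mice, while Ccl2 was 1.35-fold, Ccl7 1.61-fold and Ccl12 1.27-fold lower. With the transgene alone Ccr2 was 1.76-fold lower, and Ccl2, Ccl7 and Ccl12 were 1.39-fold to 1.41-fold lower. Both comparisons divide by the untreated wild-type array, the highest control for Ccl2, Ccl7 and Ccl12, so they are not separate evidence.

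The log2 effect of DT was 2.22 in Prestin-hDTR and -0.43 in wild-type mice for Ccl2, 2.08 and -0.68 for Ccl7, and 1.04 and -0.35 for Ccl12. For Ccr2 it was 2.59 and 0.58, so toxin went with a higher signal in both genotypes. These are differences between single arrays and were not tested.

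The list on the induction of monocyte chemoattractants held 14 genes. It includes inflammatory cytokines, transcription factors of the NF-kB, AP-1 and STAT families, and regulators of NF-kB (Nfkbia and Tnfaip3). Of these genes, 9 had a ratio to untreated Prestin-hDTR mice and 0 changed by 2-fold or more, where 2.71% of 21430 genes were higher and 1.41% lower. Tnf and Il1a were not well above background on any array. Il1b, an inflammatory cytokine, was 1.69-fold higher than in untreated Prestin-hDTR, 2.23-fold higher than in untreated wild-type and 1.86-fold higher than in DT-treated wild-type mice. Nfkb2, an NF-kB subunit, was 1.32-fold to 1.39-fold higher, and Rela, another subunit, was 1.09-fold to 1.11-fold lower. The list had a median log2 ratio of 0.002.

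Among genes that remove or release chemokines, 1 of 7 with a ratio was higher and 1 lower against untreated Prestin-hDTR mice. Ctss (cathepsin S), a lysosomal protease that can release CX3CL1, was 2.13-fold higher, and it was 1.70-fold higher when set against untreated wild-type mice. Ackr4, a decoy receptor that removes other CC chemokines, was 2.23-fold lower, and it was the sole gene of the 5 pathway lists that was lower by 2-fold or more against each control, by 2.02-fold to 2.97-fold. Ackr1, which binds CCL2 and CCL7 on vessels and red cells, was 1.21-fold lower against untreated Prestin-hDTR mice and 1.33-fold lower against untreated wild-type mice.

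Of the chemokine receptor signalling genes, 3 of 15 with a ratio were higher than in untreated Prestin-hDTR mice and 0 were higher against each control, where 1.22% of 19235 genes were. Vav1, an exchange factor of blood cells, was 2.16-fold higher, and Rac2, the blood-cell Rac GTPase, was 2.13-fold higher against untreated Prestin-hDTR mice but 1.35-fold lower against DT-treated wild-type mice. Gnai2, the G protein subunit that couples these receptors, lay within 1.08-fold. The third, Pik3r5, a subunit of the PI3-kinase that these receptors use, was 2.11-fold higher and is named here because it was called.

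Of the leukocyte adhesion genes 2 of 16 were higher than in untreated Prestin-hDTR mice and 0 against each control. Itgb2, the shared chain of the leukocyte integrins, was 2.26-fold higher, whereas against wild-type mice its ratio was 1.43-fold without and 1.19-fold with DT. Icam1, an endothelial ligand of these integrins, was 1.31-fold to 1.66-fold higher. Of the growth factors and receptors of mononuclear phagocytes 1 of 8 was called, Csf2rb, the shared chain of the GM-CSF and interleukin receptors, at 2.20-fold, and Csf1r, the CSF1 receptor, was 1.32-fold to 1.53-fold higher.

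Markers of the cells that carry the receptors were measured beside them. Over all genes, 2.71% of 21430 were higher by 2-fold or more than in untreated Prestin-hDTR mice. Against each control 1.22% of 19235 were, and both shares apply to the marker lists below. Of the macrophage markers, 4 of 13 measured were higher by 2-fold or more than in untreated Prestin-hDTR mice and 3 were so against each control: Adgre1 (a macrophage surface receptor; 2.05-fold to 2.28-fold), Cd68 (2.32-fold to 2.76-fold) and the complement gene C1qb (2.04-fold to 2.34-fold). The summed log2 signal of the list was at most 4.08 in the controls and 4.64 in DT-treated Prestin-hDTR mice. Microglial markers, several of which macrophages also express, gave 2 of 10 higher, with Fcrls at 2.08-fold to 2.24-fold against the controls and Trem2 at 1.93-fold to 2.23-fold, while P2ry12 lay between 1.14-fold lower and 1.26-fold higher. The part of macrophage number in the signals of Cx3cr1 and Ccr2 was not tested.

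Classical monocyte markers had ratios in both directions. Of 8 measured, 2 were higher by 2-fold or more than in untreated Prestin-hDTR mice and 1 against each control, Lyz2 (lysozyme M, shared with macrophages and neutrophils), at 2.46-fold to 4.28-fold. Ly6c1, which endothelium also expresses, was 1.09-fold to 1.17-fold higher, and Ly6c2 was not measured. Chil3 had log2 signals of 1.49 in untreated and 2.09 in DT-treated wild-type mice, and -0.64 in untreated and 0.31 in DT-treated Prestin-hDTR mice, and Hp gave -0.67, 0.42, -2.19 and -1.23, so both lay below either wild-type group after DT in Prestin-hDTR mice. Of the patrolling monocyte markers 1 of 6 was higher, Spn, at 2.44-fold against untreated Prestin-hDTR and 1.42-fold lower against DT-treated wild-type mice. Nr4a1, the first gene of that list, was 1.22-fold to 1.64-fold lower than each control. Against DT-treated wild-type mice 0 of the 6 had a log2 ratio above 0.

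Among the controls, the order of Ccr2 was also that of the summed neutrophil, classical monocyte, platelet and B cell markers. Summed over 12 genes, the log2 signal of the neutrophil list was 3.82 in Prestin-hDTR mice without DT, 5.28 in wild-type mice without DT and 5.94 in wild-type mice with it, the order from lowest to highest that Ccr2 had. Of 11 neutrophil genes with a ratio, 4 were higher by 2-fold or more than in untreated Prestin-hDTR mice and 0 against each control. In DT-treated Prestin-hDTR mice the sum was 4.60, below both wild-type groups, whereas Ccr2 was above both. S100a8, a calprotectin subunit abundant in neutrophils, was 3.05-fold lower with the transgene alone, and with DT in both genotypes it was 2.87-fold lower in Prestin-hDTR mice; Ly6g was 1.13-fold to 1.56-fold above the controls in Prestin-hDTR mice given DT. Classical monocyte markers summed to 4.62, 4.69 and 4.92 in the same order of the controls and to 4.84 after DT in Prestin-hDTR mice. The platelet gene Ppbp was 18.1-fold lower with the transgene alone. The B cell markers summed to -1.10, -0.89 and 0.32 in that order and to -0.81 after DT in Prestin-hDTR mice. By their median ratio, erythroid markers were also highest in DT-treated wild-type mice, at 2.46-fold over untreated wild-type mice (9 of 9 above 0). After DT the median ratio of Prestin-hDTR to wild-type mice was 0.418. Their sum did not have this order, at 6.41 in DT-treated wild-type and 6.42 in DT-treated Prestin-hDTR mice. Slc4a1, the anion exchanger of red cells, was 6.03-fold higher with toxin alone. The part of blood or marrow cells in the control spread of Ccr2 was not tested.

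**Figure D5:**
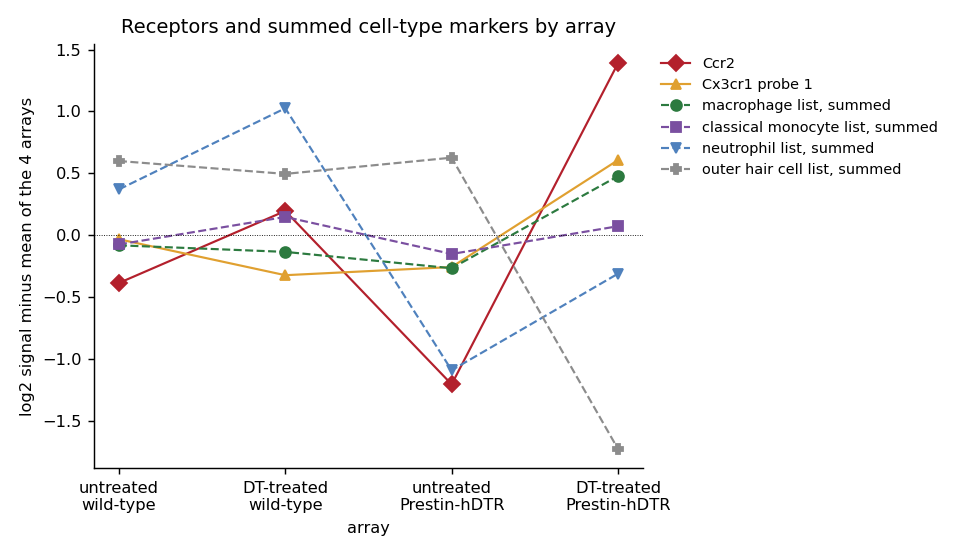
Log2 signal of Ccr2, Cx3cr1 probe 1 and the summed signal of 4 marker lists on each array, minus the mean of the 4 arrays (y axis); lines join the values of a gene or list and carry no order in time. Ccr2 and the neutrophil list have the same order in the 3 controls but part in DT-treated Prestin-hDTR mice, where the neutrophil list is at 4.60 before centring against 5.28 and 5.94 in wild-type mice.

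By the Euclidean distance between log2 signals centred on the mean of the 4 arrays, over 18231 genes well above background on all 4, the genes nearest to Ccl2 were Timp1 (an inhibitor of metalloproteinases, distance 0.21), Ccl7 (0.22), Lgr6 (0.31), Cd28 (0.40) and Dmrtc1c2 (0.41). Ccr2 itself ranked 124 by its distance from Ccl2, and Ccl12 ranked 159. The genes nearest to Ccr2 were Loxl4 (0.24), Gm10433 (0.28), Wnt2 (0.38), Sirpb1b (0.41) and Cd177 (0.42), the last a neutrophil surface protein. Nearest to Cx3cr1 probe 1 were the complement gene C4b (0.03), Aif1 (IBA1, the usual stain for macrophages and microglia; 0.06), Nppc (0.07), Chst1 (0.09) and Apol9b (0.09), and Ccl12 ranked 48. With 4 arrays such likeness is a description only.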

How the data were processed

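Total RNA of whole cochleae was labelled with Cy3 and hybridised by the authors to 1 array per group. The authors deposited the intensity of each spot from Agilent Feature Extraction 11.5.1.1, after its spatial and multiplicative detrending, on a linear scale and with no scaling between arrays. The authors' own scaled values, each intensity over a constant of its array, served as an alternative, and the mean and background intensity of spots served another.

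Control spots (1377 of 44397) and outlier spots (149 to 228 on an array) were dropped. The remaining spots of each probe were averaged, with a detection flag kept if more than a share of 0.5 of them carried it. Division by the array's 75th percentile over probes preceded log2. Ratios with a signal not well above background are lower bounds, and no ratio was given where such a bound pointed the wrong way; such probes counted as compared and not changed in the shares over all probes or genes, whereas list counts cover genes with a ratio. Lists used 1 probe per gene, the one with the highest mean signal among those detected at all. Names were matched to RefSeq by symbol for 29803 probes, accession for 1635 and synonym for 295, and 7696 kept the name in the files. The genes named were drawn from the 7 members, the first 2 genes of each list, up to 4 genes of a list with the largest ratio to the mean of the controls, and the 5 nearest profiles. Others are marked where they stand or given with their list's call. Not every gene that this rule selects is named. The dendritic cell, T and NK cell, endothelial cell, neuron and supporting cell lists are not reported. The values of 1 adhesion gene are not reported here. The members and lists were chosen with earlier results of these data known. Summed list signals are dominated by the brightest genes. The steps were tested on simulated data. Software was R 4.3.3 with limma 3.58.1 (for normexp, offset 50) and Python 3.11.15 with pandas 2.3.3, numpy 2.4.6 and matplotlib 3.10.9.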

Additional observations from a re-analysis of the deposited data

Results flagged for a closer look

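For 5 genes, Cx3cr1 on 2 of its 3 probes, the effect of DT pointed in opposite directions in the genotypes, higher with DT in Prestin-hDTR and lower with DT in wild-type mice, each on single arrays, and the difference was not tested. On each of these probes the untreated wild-type array, which is the baseline of the wild-type effect, was the highest control. The log2 effect in Prestin-hDTR mice minus that in wild-type mice was 2.65 for Ccl2, 2.76 for Ccl7 and 1.39 for Ccl12, each at 2-fold or more in Prestin-hDTR mice. It was 0.44 for Cx3cl1, 1.15 for Cx3cr1 probe 1 and 1.08 for Cx3cr1 probe 2, which were under 2-fold in both genotypes. In wild-type mice the effect itself was -0.10 for Cx3cl1, smaller than the software's error of a spot, 0.14, and -0.17 for Cx3cr1 probe 2. Among probes well above background on all 4 arrays, 0.0253%, 0.0169% and 0.481% had a difference as large as those of Ccl2, Ccl7 and Ccl12. For Cx3cl1 the share was 7.21%, and for Cx3cr1 probes 1 and 2 it was 0.819% and 0.967%.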

How the results depend on the processing

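Of 298 member log2 ratios recomputed over 7 alternatives, 293 kept their direction or their side of 2-fold, 0 called ratios turned, and 5 fell under 2-fold, all with normexp: Ccl8 in its 3 comparisons (0.95, 0.84 and 0.92), Ccl12 against untreated Prestin-hDTR (0.96) and Ccr2 against DT-treated wild-type mice (0.76). With normexp the number of member probes higher by 2-fold or more was 3 against the DT-treated wild-type array and also 3 against every control, and the control range of Ccr2 was 0.72; normexp adds an offset that shrinks the ratios of dim probes. No other alternative (quantile scaling, the percentile of detected probes, no floor, detection on all 4 arrays, the other detection flag, the authors' scaled values) changed these counts by more than 1.5 times. With a control array left out of the mean in turn, chosen after seeing the data, no member crossed 2-fold; the neutrophil list's median log2 ratio ran from -0.76 without untreated Prestin-hDTR to 0.11 without DT-treated wild-type mice. A slide block could not be fitted, as all arrays lay on 1 slide. No paired analysis was possible because each group has 1 array. The dim signals of Ccl8 and Ccr2 limit what their ratios can show.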
